A study of Mus musculus with 12 samples.

Results

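Kit, Elf5, Aldh1a3, Cd14, Sox10, Ehf, Lbp, Cxcl15, Wfdc18 and Trf, a set of marker genes of the luminal progenitor cell of the mouse mammary gland, were followed in the basal and luminal cells of that gland. They were chosen by name from the count table, all 10 were found among its 27179 genes, and all 10 passed the filter on low counts. RNA of basal and of luminal epithelial cells was sequenced from female mice in 4 groups of 3 biological replicates. The controls carried floxed Foxp1 alleles, Foxp1(fl/fl), and the mice labelled knockout carried MMTV-cre/Foxp1(fl/fl), so that both genotypes share the floxed alleles and differ by the Cre transgene. The labels give no age, no treatment, no sorting markers, and no word on whether a replicate is 1 mouse or a pool. MMTV-cre drives the recombinase from the promoter of mouse mammary tumour virus, which is active in mammary epithelium, need not be active in every epithelial cell, and is also active in some tissues outside the gland.

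The mammary ducts have an outer layer of contractile basal cells and an inner layer of luminal cells, and the luminal layer holds hormone-sensing cells and progenitors that give rise to the milk-secreting alveolar cells. Luminal progenitors are known for the receptor tyrosine kinase KIT, for the ETS transcription factor ELF5, which is required for alveolar development, and for aldehyde dehydrogenase activity. They also express genes of innate defence and of milk, such as the lipopolysaccharide co-receptor CD14 and the whey acidic protein family. The luminal libraries hold both luminal populations, so a level here is an average over them.

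Promoters are shown for Kit, Elf5, Cxcl15 and Wfdc18 because these are the 4 members with an entry in the RefSeq promoter table. Their log2 folds of luminal over basal cells in controls were 5.34, 5.04, 5.47 and 5.32, the largest of the 10 members. The other 6 members have no entry there. Each sequence is the 250 bases before the first listed transcription start, 5′ to 3′ on the plus strand of GRCm38.p6, which is also the strand of the gene. Capitals mark AGGAAG on either strand, a common binding word of ETS factors such as ELF5 and EHF.
Kit, chr5:75574737-75574986: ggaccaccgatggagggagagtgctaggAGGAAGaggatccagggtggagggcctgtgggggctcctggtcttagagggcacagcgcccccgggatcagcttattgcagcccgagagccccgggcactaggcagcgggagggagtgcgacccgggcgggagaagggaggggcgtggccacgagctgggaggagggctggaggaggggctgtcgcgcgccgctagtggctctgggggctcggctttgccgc
Elf5, chr2:103411848-103412097: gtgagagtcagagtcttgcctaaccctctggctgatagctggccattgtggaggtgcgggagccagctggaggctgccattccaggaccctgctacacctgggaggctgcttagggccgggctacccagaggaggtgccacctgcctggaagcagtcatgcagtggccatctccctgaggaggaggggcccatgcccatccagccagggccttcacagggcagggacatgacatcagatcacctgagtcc
Cxcl15, chr5:90794284-90794533: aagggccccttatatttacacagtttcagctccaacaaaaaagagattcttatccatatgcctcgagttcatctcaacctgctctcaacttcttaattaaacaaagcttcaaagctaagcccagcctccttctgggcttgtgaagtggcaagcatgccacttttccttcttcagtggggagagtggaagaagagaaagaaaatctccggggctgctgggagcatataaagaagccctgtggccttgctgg
Wfdc18, chr11:83708754-83709003: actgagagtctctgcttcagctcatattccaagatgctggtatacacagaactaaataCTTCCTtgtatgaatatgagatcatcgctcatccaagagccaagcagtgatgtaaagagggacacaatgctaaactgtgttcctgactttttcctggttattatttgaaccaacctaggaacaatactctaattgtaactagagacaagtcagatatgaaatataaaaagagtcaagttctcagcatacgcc
AGGAAG was found once in the Kit promoter, from position -222 to -217 relative to the start, and once in the Wfdc18 promoter, on the opposite strand from -192 to -187. It was not found in these windows of Elf5 or Cxcl15. The same word is in 29.5% of the 32851 promoters of this length, so its presence in 2 of 4 is a description. TTCCNGGAA, a form of the word bound by the prolactin-activated factor STAT5, was in none of the 4 windows and is in 0.913% of all promoters. The words were searched on both strands and no matches overlapped.

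Depth and purity bear on all members. Total counts were 9769361 to 11133908 per library and 15449513 in luminal knockout-labelled replicate 3. CPM are counts scaled to a common library total with TMM factors. In luminal cells Foxp1 itself, the targeted gene, was at 150 to 161 CPM in knockout-labelled libraries and at 62.0 to 82.3 CPM in controls. The log2 fold was 1.07 (SE 0.19, adjusted p = 0.0161 in edgeR's quasi-likelihood test), so the count was higher, not lower, in the knockout-labelled libraries. Basal Foxp1 was at 193 to 284 CPM in knockout-labelled libraries and at 160 to 221 CPM in controls. These ranges overlap (log2 fold 0.22, SE 0.19, adjusted p = 0.926 in that test), so mean Foxp1 was lower in neither lineage. Reads counted for it include exons outside a deleted part, so these counts cannot check the label. The groups are therefore called knockout-labelled. The 10 basal markers summed to 20455 to 22804 CPM in basal controls and 202 to 808 CPM in luminal controls. The 9 pan-luminal markers summed to 11238 to 20353 CPM in luminal controls and 1687 to 3017 CPM in basal controls. In knockout-labelled libraries the basal markers summed to 19117 to 27224 CPM in basal and 410 to 1090 CPM in luminal cells. The pan-luminal markers there summed to 16873 to 25938 CPM in luminal and 2152 to 3766 CPM in basal cells. Neither list overlapped between the lineages. The basal sums of the luminal libraries overlapped between genotypes, and the part of basal cells in luminal differences was not tested. Several libraries stood apart in markers of other cells. Of 18 salivary gland markers, 17 had counts in the luminal controls, and their sum was 122783, 11306 and 70687 CPM in luminal control replicates 1, 2 and 3, and 85059, 23757 and 21019 CPM in the luminal knockout-labelled replicates. Neutrophil markers summed to 110 CPM in basal control replicate 3 and 52.7 CPM in luminal control replicate 3, with Ly6g, Elane and Retnlg at 0 in both control groups, against 0.45 to 4.46 CPM in the other 10 libraries. Fibroblast markers, 9 of 9 detected, summed to 467 to 609 CPM in basal controls and 1796 to 2946 CPM in basal knockout-labelled libraries.

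**Figure D1:**
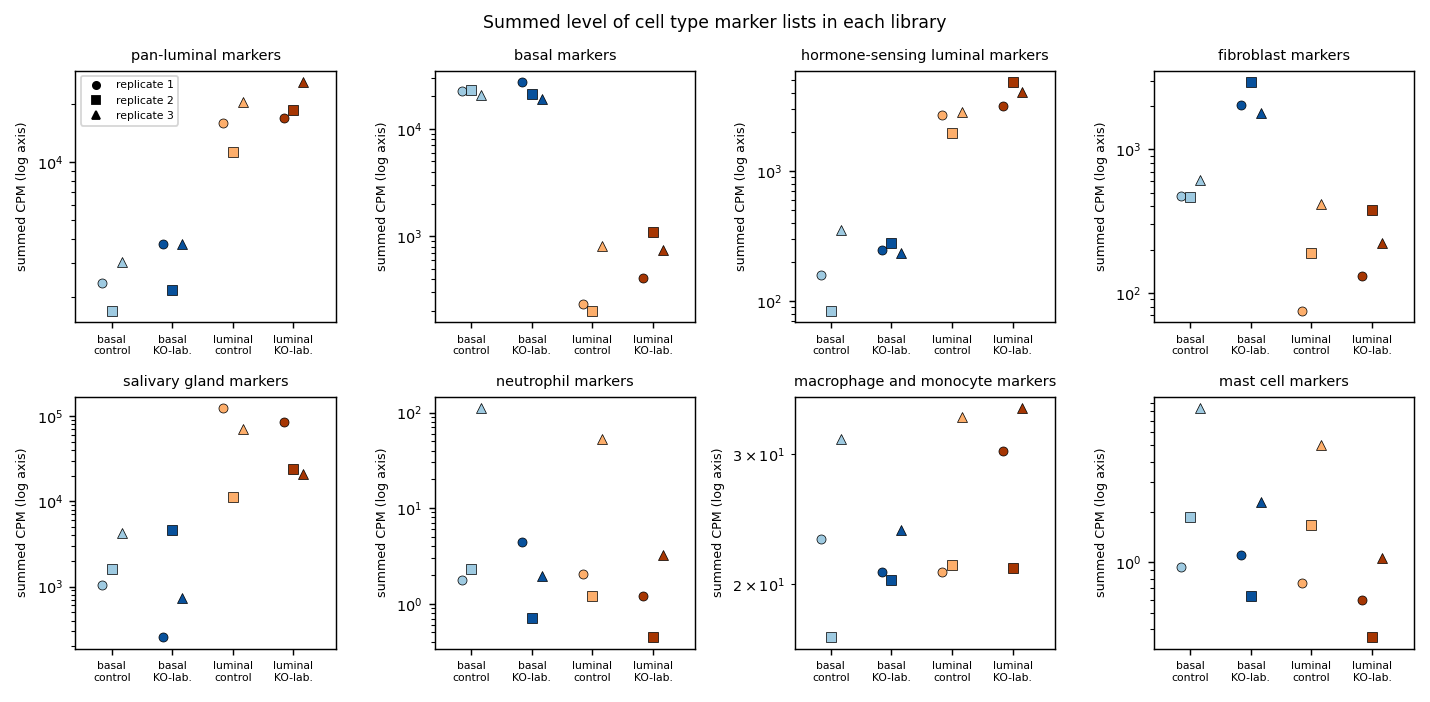
Summed CPM (log axes) of 8 lists of cell type markers in each of the 12 libraries, with 1 point per library, colour for the group and shape for the replicate number. Fibroblast markers of the basal knockout-labelled libraries (1796 to 2946 CPM) lie above those of the basal controls (467 to 609 CPM), and neutrophil markers are highest in replicate 3 of both control groups.

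In control mice the progenitor markers were higher in luminal than in basal libraries. They were chosen as markers of a luminal cell, with earlier results of these data known. The shares over all genes given here therefore describe the list and do not test it. For all 10 the lowest luminal library was above the highest basal library, and 9 of 10 were called higher in luminal cells, where 16.3% of the 14903 genes tested were called higher and 33.2% were called in either direction. Non-overlapping groups with luminal above basal occurred for 22.9% of all genes. The members' median log2 fold was 4.54, against 0.04 for all genes tested. A gene is called when its adjusted p in edgeR's quasi-likelihood test, with Benjamini-Hochberg adjustment over all genes tested, is under 0.05, and all adjusted p-values below come from that test unless another is named. The difference was very unequal among members, from over 30-fold for Kit, Elf5, Aldh1a3, Cxcl15 and Wfdc18 to under 3-fold for Sox10, Lbp and Trf. In bulk RNA, fewer cells of a type and less RNA per cell cannot be told apart.

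Among the transcription factors Elf5 (Entrez 13711, GRCm38 chromosome 2, 103412098 to 103450989) was the most restricted to the luminal libraries. It stood at 144, 271 and 90.7 CPM in luminal controls and at 2.49, 4.02 and 8.78 CPM in basal controls. The difference was 32.9-fold (log2 fold 5.04, SE 0.54, adjusted p = 4.27e-05). Ehf, an ETS factor of epithelia that lies beside Elf5 (Entrez 13661, chromosome 2, 103263431 to 103303275), stood at 275, 484 and 281 CPM in luminal controls. Its basal control values were 18.5, 14.7 and 110 CPM, so that replicate 3 was far above the others and the SD exceeded the mean (47.7 ± 54.0 CPM, SD, n = 3). Ehf was nevertheless called, 7.26-fold higher (log2 fold 2.86, SE 0.67, adjusted p = 0.00669), and without basal control replicate 3 its log2 fold was 4.39. Leaving out that replicate also raised the log2 folds of Elf5 to 5.68 and of Cd14 to 4.72. Sox10, a neural crest and stem cell regulator (Entrez 20665, chromosome 15, 79154913 to 79164490), was well expressed in both lineages. It stood at 215, 223 and 155 CPM in luminal controls and at 107, 133 and 101 CPM in basal controls, a 1.74-fold difference (log2 fold 0.80, SE 0.25, adjusted p = 0.0301). Schwann cells and melanocytes could carry Sox10, and their markers summed to 73.3 to 115 CPM in luminal controls and 35.8 to 99.6 CPM in basal controls. Most of this was Mbp, with Dct, Tyrp1 and Tyr at 0 in luminal controls. The part of such cells in the level of Sox10 was not tested. The call for Sox10 was lost without basal control replicate 1 (adjusted p = 0.104) or 3 (0.0754), or without luminal control replicate 1 (0.0957) or 2 (0.0887).

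Of the cell surface proteins, Kit, the receptor for stem cell factor (Entrez 16590, chromosome 5, 75574987 to 75656722), stood at 357, 540 and 167 CPM in luminal controls and at 7.68, 11.8 and 6.65 CPM in basal controls. It was 40.6-fold higher in luminal cells (log2 fold 5.34, SE 0.53, adjusted p = 2.41e-05). Mast cells also express Kit. The 8 mast cell markers summed to 0.75 to 5.03 CPM in luminal controls, with Ms4a2 and Fcer1a at 0 in every group. The part of such cells in the level of Kit was not tested. Cd14 (Entrez 12475, chromosome 18, 36725064 to 36726815) stood at 240, 259 and 197 CPM in luminal controls and at 9.13, 8.49 and 22.1 CPM in basal controls. It differed 17.5-fold (log2 fold 4.13, SE 0.38, adjusted p = 1.61e-05). Macrophages and monocytes also express Cd14. Their 10 markers summed to 20.8 to 33.7 CPM in luminal controls and 17.0 to 31.4 CPM in basal controls, ranges that overlap. Of the 5 that were tested, 1 was called higher in luminal controls, Cd163 (log2 fold 2.49, SE 0.59, adjusted p = 0.00729), and 0 lower. The part of such cells in the level of Cd14 was not tested. Aldh1a3, which makes retinoic acid from retinaldehyde (Entrez 56847, chromosome 7, 66390892 to 66427477), stood at 563, 496 and 1264 CPM in luminal controls and at 18.1, 16.9 and 40.1 CPM in basal controls. Replicate 3 was the highest in both lineages, and the log2 fold was 4.95 (SE 0.54), or 4.36 without luminal control replicate 3.

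The secreted members held both the highest and the lowest levels. Wfdc18, a small protein with a whey acidic protein fold (Entrez 14038, chromosome 11, 83709004 to 83711360), stood at 627, 687 and 332 CPM in luminal controls and at 15.04, 14.2 and 12.01 CPM in basal controls (39.9-fold, log2 fold 5.32, SE 0.41, adjusted p = 6.62e-06). Per kilobase of gene model it was the most abundant member in luminal controls, at 1009 ± 349 CPM per kilobase (SD, n = 3), rank 44 of 27179 genes. Cxcl15, also called lungkine, a neutrophil-attracting chemokine (Entrez 20309, chromosome 5, 90794534 to 90803067), stood at 36.2, 36.8 and 149.5 CPM in luminal controls. In basal controls it was at 2.39, 0.63 and 2.03 CPM, and the fold of 44.3 was the largest of the 10 (log2 fold 5.47, SE 0.79, adjusted p = 0.000318). Luminal control replicate 3 was far above the other luminal controls, and without it the log2 fold was 4.41 and no longer the largest.

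Trf, the iron carrier transferrin (Entrez 22041, chromosome 9, 103208876 to 103230286), was abundant in both lineages. It stood at 832, 2091 and 955 CPM in luminal controls and at 651, 705 and 305 CPM in basal controls, a 2.33-fold difference (log2 fold 1.22, SE 0.38, adjusted p = 0.0282). That call was lost without luminal control replicate 2 (log2 fold 0.69, adjusted p = 0.138), without basal control replicate 1 (0.0551) or 3 (0.0663), and in a fit of the control libraries alone (0.0962). Exons of Trf overlap the predicted gene Gm20425 on the same strand, whose reads cannot be told apart there. Lbp, the lipopolysaccharide-binding protein that hands lipopolysaccharide to CD14 (Entrez 16803, chromosome 2, 158306493 to 158332852), was the member that was not called. It stood at 84.4, 37.3 and 73.8 CPM in luminal controls and at 36.5, 19.2 and 27.5 CPM in basal controls (log2 fold 1.23, SE 0.48, adjusted p = 0.0683). With the replicate number as a block, which pairs these control libraries, the log2 fold was 1.19 and the adjusted p = 0.00412. Lbp and the salivary gland markers partly varied together across luminal libraries. Luminal control replicate 2, with 37.3 CPM of Lbp, had the lowest sum of those markers (11306 CPM), and the 3 luminal libraries above 60 CPM of Lbp had the 3 highest sums (70687 to 122783 CPM). The order did not hold among the other 3, since knockout-labelled replicates 2 and 3 had less Lbp (15.3 and 29.9 CPM) with higher sums (23757 and 21019 CPM). The part of salivary gland RNA in the level of Lbp was not tested.

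**Figure D2:**
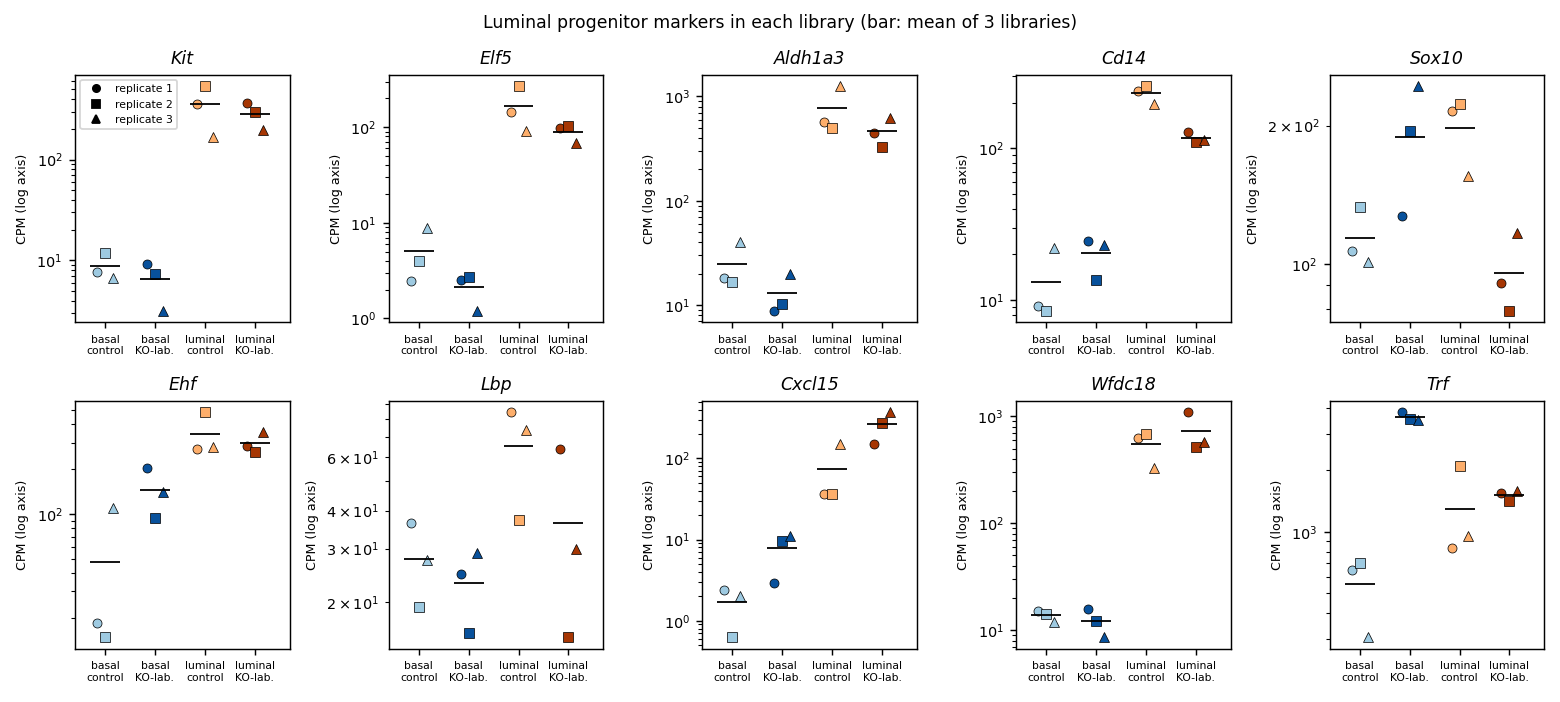
CPM (log axis) of each of the 10 members in the 12 libraries, with 1 point per library and a bar at the mean of 3, grouped as basal control, basal knockout-labelled, luminal control and luminal knockout-labelled. Trf in the basal knockout-labelled libraries (3510 to 3838 CPM) is above every other group, and Sox10 has its lowest values in the luminal knockout-labelled group (79.1 to 117 CPM).

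In the knockout-labelled mice the same lineage difference held for most members and had the opposite sign for Sox10 and Trf, although the interaction test of that change called neither (adjusted p = 0.0675 and 0.0893). Of the 10, 6 were called higher in luminal cells (Kit, Elf5, Aldh1a3, Cd14, Cxcl15 and Wfdc18) and 2 were called lower, where 19.2% of all genes were called higher and 21.4% lower. Groups did not overlap for 7 members with luminal higher and for 2 with luminal lower, against 27.8% and 27.1% of all genes, or 54.9% in either direction. The members' median log2 fold was 3.81. Wfdc18 differed most (log2 fold 5.90, SE 0.42, adjusted p = 4.14e-06), then Kit (5.43, SE 0.53), Elf5 (5.37, SE 0.57), Aldh1a3 (5.17, SE 0.55) and Cxcl15 (5.09, SE 0.74). Luminal Cd14 exceeded basal Cd14 with a log2 fold of 2.53 (SE 0.35, adjusted p = 0.000229).

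Sox10 stood at 91.2, 79.1 and 117 CPM in the luminal knockout-labelled libraries and at 127, 195 and 244 CPM in the basal ones. The luminal level was 1.97-fold lower (log2 fold -0.98, SE 0.25, adjusted p = 0.00949). Trf stood at 1544, 1416 and 1573 CPM in luminal and at 3838, 3550 and 3510 CPM in basal knockout-labelled libraries, 2.40-fold lower in luminal cells (log2 fold -1.27, SE 0.38, adjusted p = 0.0201). The call for Trf was lost without luminal knockout-labelled replicate 1 (adjusted p = 0.0534), 2 (0.0664) or 3 (0.0508). Sox10 and Trf are 2 of 16 genes, 0.107% of those tested, that were called higher in luminal cells of controls and lower in luminal cells of knockout-labelled mice. The other genes of that group include Adcy5, Amigo2, Angpt1, Igf2 and Tspan8. Ehf was at 286, 262 and 353 CPM in luminal and at 203, 94.3 and 140 CPM in basal knockout-labelled libraries, which did not overlap, and it was not called (log2 fold 1.05, SE 0.63, adjusted p = 0.205). Lbp was not called either (log2 fold 0.65, SE 0.48, adjusted p = 0.299), and its groups overlapped.

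**Figure D3:**
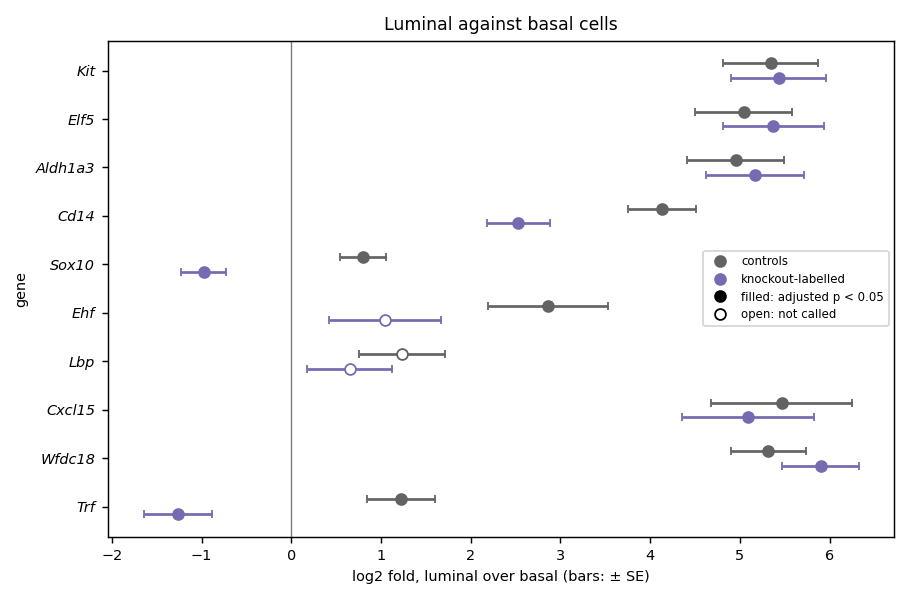
Log2 fold of luminal over basal cells for each member, in controls and in knockout-labelled libraries, with bars of 1 SE; filled points have an adjusted p under 0.05. Sox10 and Trf lie above 0 in controls (0.80 and 1.22) and below 0 in knockout-labelled libraries (-0.98 and -1.27), and Kit, Elf5, Aldh1a3, Cxcl15 and Wfdc18 are near or above 5 in both.

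In basal cells Trf rose in the knockout-labelled mice, and no other member was called. That is 1 of 10 members, where 0.671% of all genes were called and 0.611% were called higher. Basal Trf went from 651, 705 and 305 CPM in controls to 3838, 3550 and 3510 CPM, 6.56-fold higher (log2 fold 2.71, SE 0.40, adjusted p = 0.0135). The groups were far apart, and the knockout-labelled libraries were close to each other (3633 ± 179 CPM, SD, n = 3). Per kilobase of gene model, Trf went from rank 229 of 27179 genes in basal controls to rank 15. The call was lost without basal control replicate 1 (log2 fold 2.83, adjusted p = 0.0679) and held without each of the other 11 libraries. In the same basal libraries the fibroblast markers were higher, with groups that did not overlap for 9 of 9 and a call for 2 of 9, Pdgfra and Dpp4; their part in the rise of Trf was not tested.

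**Figure D4:**
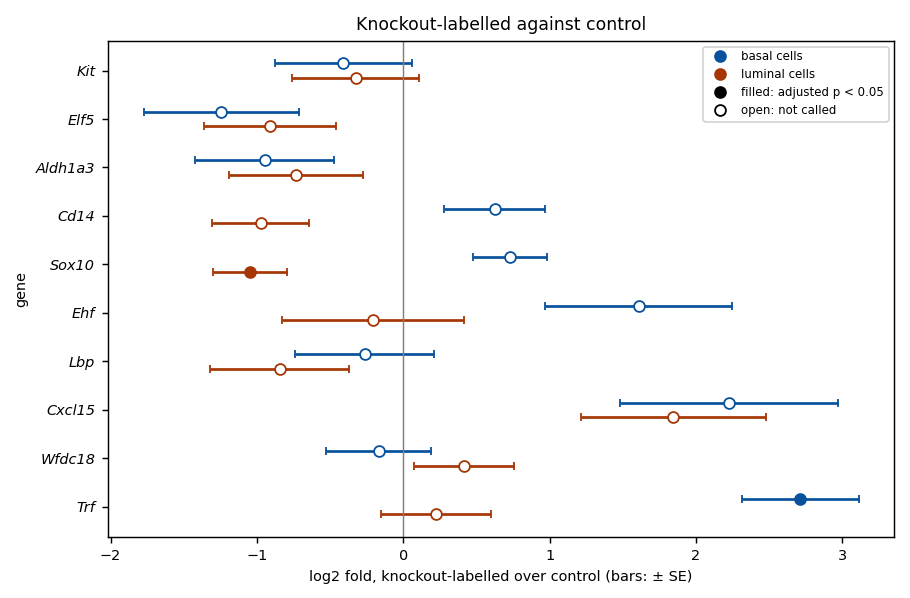
Log2 fold of knockout-labelled over control for each member, in basal cells and in luminal cells, with bars of 1 SE; filled points have an adjusted p under 0.05. The filled points are Trf in basal cells (2.71) and Sox10 in luminal cells (-1.05).

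Cxcl15 was the other member whose basal groups did not overlap, which was so for 12.4% of all genes and, with the knockout-labelled group higher, for 8.15%. It stood at 2.94, 9.58 and 10.97 CPM in knockout-labelled basal libraries against 2.39, 0.63 and 2.03 CPM in controls (log2 fold 2.23, SE 0.74, adjusted p = 0.277). DESeq2 called it (log2 fold 2.22, adjusted p = 0.0384). Ehf was at 203, 94.3 and 140 CPM against 18.5, 14.7 and 110 CPM, and its groups overlapped through basal control replicate 3 (log2 fold 1.61, SE 0.64, adjusted p = 0.427). Without that replicate, which also had the highest neutrophil and pan-luminal marker sums of the basal controls, Ehf was called (log2 fold 3.13, adjusted p = 0.0074). The part of those cells in the Ehf count was not tested.

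Sox10 was at 127, 195 and 244 CPM in knockout-labelled basal libraries against 107, 133 and 101 CPM in controls, with 1 library inside the control range and no call (log2 fold 0.73, SE 0.25, adjusted p = 0.299). In these libraries the Schwann cell and melanocyte markers summed to 81.9 to 118 CPM, against 35.8 to 99.6 CPM in controls, and their part in the level of Sox10 was not tested. Cd14 had a basal log2 fold of 0.62 (SE 0.34, adjusted p = 0.705). Elf5 and Aldh1a3, both at low basal levels, had log2 folds of -1.24 (SE 0.53, adjusted p = 0.497) and -0.95 (SE 0.47, adjusted p = 0.631). Kit (-0.41, SE 0.47), Lbp (-0.26, SE 0.48) and Wfdc18 (-0.17, SE 0.36) had log2 folds within 1 SE of 0. Over the 10 members, 5 had a fold above 0, and the median was 0.23 against -0.01 for all genes.

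In luminal cells Sox10 fell in the knockout-labelled mice, and it was the member called, 1 of 10 where 3.03% of all genes were called and 0.819% were called lower. Markers of hormone-sensing luminal cells, 10 of 10 detected, differed between the same libraries: they summed to 3128 to 4814 CPM in knockout-labelled and 1962 to 2839 CPM in control luminal libraries, with the prolactin receptor gene Prlr the most abundant (means of 2153 and 1042 CPM). These 10 did not move in 1 direction, and 5 had a fold above 0. Groups did not overlap for 4 with the knockout-labelled one higher and for 2 with it lower, against 13.1% and 12.3% of all genes. None was called higher. The 2 called lower were Tnfsf11 (log2 fold -5.25, SE 0.63, adjusted p = 0.00291) and Cited1 (-2.81, SE 0.36, adjusted p = 0.00321). The part of the balance of luminal cells in the members' levels was not tested. With the replicate number as a block, which pairs these luminal libraries, 1097 genes were called in place of 451, and 2 of 10 members. Luminal Sox10 went from 215, 223 and 155 CPM in controls to 91.2, 79.1 and 117 CPM, 2.06-fold lower with groups that did not overlap (log2 fold -1.05, SE 0.25, adjusted p = 0.0499). The adjusted p lies at the threshold: it was 0.0502 with DESeq2's size factors in edgeR or with salivary genes left out, 0.0530 with no filter, 0.0648 in a fit of the luminal libraries alone, and over 0.05 when any 1 of 8 of the 12 libraries was left out, up to 0.184. These 8 are basal control replicates 1 and 2, basal knockout-labelled replicate 2, luminal control replicates 1 and 2, and all 3 luminal knockout-labelled replicates. DESeq2 called Sox10 with an adjusted p of 0.00446 and the replicate block with 0.0369. In all 3 same-numbered pairs the knockout-labelled library was lower, by log2 differences of -1.24, -1.49 and -0.41.

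**Figure D5:**
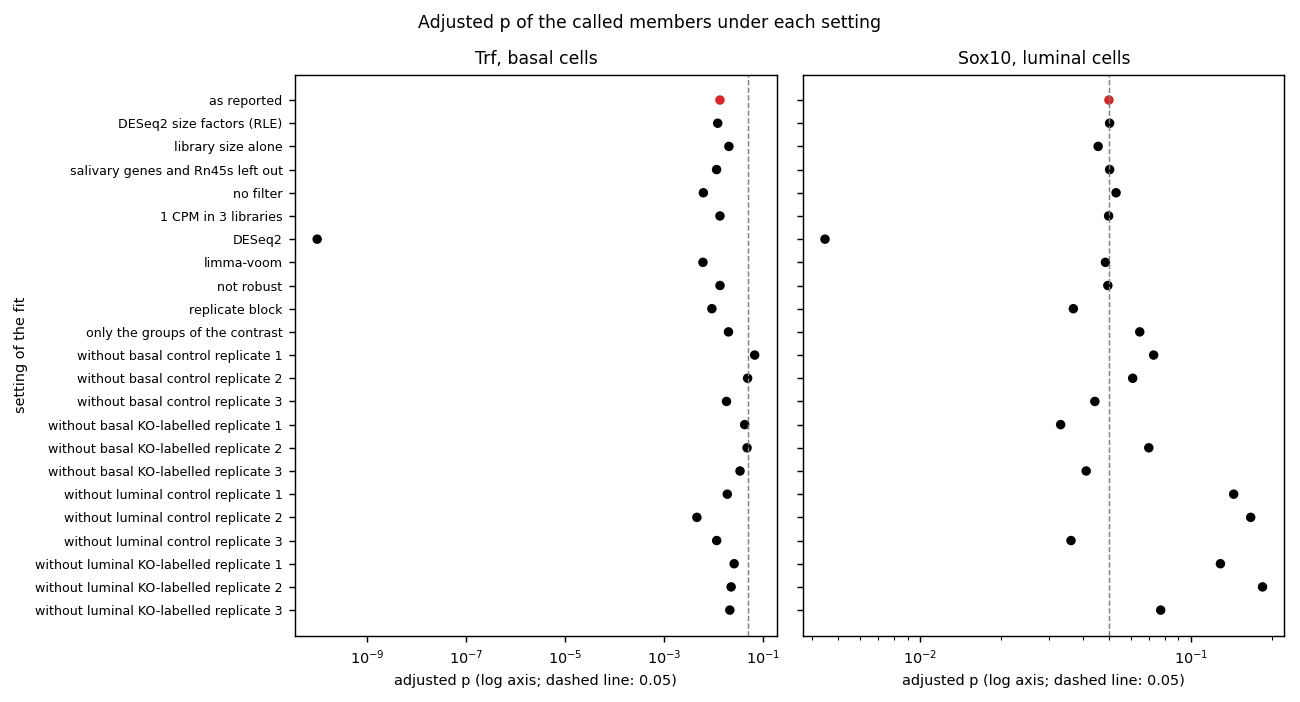
Adjusted p (log axis) of Trf in basal cells and of Sox10 in luminal cells, knockout-labelled against control, as reported and under each other setting of the fit; the dashed line is at 0.05. Trf crosses the line without basal control replicate 1 (0.0679), and Sox10 sits on it (0.0499) and crosses it in 12 settings.

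Cd14 and Cxcl15 had luminal groups that did not overlap and were not called. This was so for 25.4% of all genes, 12.3% with the knockout-labelled group lower and 13.1% with it higher. Knockout-labelled libraries had 128, 111 and 114 CPM of Cd14 against 240, 259 and 197 CPM in controls, 1.97-fold lower (log2 fold -0.98, SE 0.33, adjusted p = 0.149). Every pair was lower, by -0.90, -1.22 and -0.78 on the log2 scale. Cd14 was called in a fit of the luminal libraries alone (adjusted p = 0.0419) and without basal control replicate 3 (0.0272). Macrophage and monocyte markers summed to 21.0 to 34.6 CPM in the luminal knockout-labelled libraries and 20.8 to 33.7 CPM in the controls. The part of such cells in the difference of Cd14 was not tested.

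Luminal Cxcl15 differed in the other direction. Knockout-labelled libraries had 150, 276 and 373 CPM against 36.2, 36.8 and 149.5 CPM in controls, with luminal control replicate 3 just below the lowest knockout-labelled library. The log2 fold was 1.85 (SE 0.63, adjusted p = 0.151). With the replicate block Cxcl15 was called (log2 fold 2.04, adjusted p = 0.0297), as it was without luminal control replicate 3 (2.89, adjusted p = 0.0268). The pairs differed by 2.05, 2.90 and 1.32 on the log2 scale.

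The remaining members overlapped between the luminal groups. Elf5 was at 98.8, 102 and 68.6 CPM against 144, 271 and 90.7 CPM (log2 fold -0.91, SE 0.45, adjusted p = 0.333). Lbp was at 63.8, 15.3 and 29.9 CPM against 84.4, 37.3 and 73.8 CPM (-0.84, SE 0.47, adjusted p = 0.399), and the salivary gland marker sum was again lower in knockout-labelled replicates 2 and 3 than in replicate 1. Aldh1a3 was at 449, 331 and 617 CPM against 563, 496 and 1264 CPM (-0.73, SE 0.46, adjusted p = 0.453). For these 3 genes every same-numbered pair was lower in the knockout-labelled library. Kit was at 360, 295 and 195 CPM against 357, 540 and 167 CPM (-0.32, SE 0.43, adjusted p = 0.764), and Ehf had a log2 fold of -0.21 (SE 0.62, adjusted p = 0.911). Wfdc18, at 1098, 521 and 571 CPM against 627, 687 and 332 CPM, had a log2 fold of 0.41 (SE 0.34, adjusted p = 0.595). Trf had a luminal log2 fold of 0.23 (SE 0.37, adjusted p = 0.818), and its knockout-labelled luminal libraries varied by 5.54% (CV) against 53.7% in controls. Of the 10 members, 7 had a luminal fold below 0, and the median was -0.53 against -0.03 for all genes.

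Whether the genotype difference itself differed between lineages was tested by the interaction, luminal minus basal. Of the 10 members, 0 passed it in edgeR's quasi-likelihood test, where 0.275% of all genes did. The members with the lowest p in that test were Sox10 (log2 difference -1.78, SE 0.36, adjusted p = 0.0675), Trf (-2.49, SE 0.54, adjusted p = 0.0893) and Cd14 (-1.60, SE 0.48, adjusted p = 0.218). By p they ranked 80, 107 and 415 of the 14903 genes tested. limma-voom called 0 members. DESeq2 called 2, Sox10 (-1.76, adjusted p = 0.000762) and Trf (-2.47, adjusted p = 0.000417). Without luminal control replicate 3 edgeR called Sox10 (adjusted p = 0.049), and without basal control replicate 3 it called Cd14 (-2.19, adjusted p = 0.0208) and Ehf (-3.34, adjusted p = 0.0177). Ehf as reported had a difference of -1.81 (SE 0.89, adjusted p = 0.547). Kit (0.09, SE 0.63), Aldh1a3 (0.21, SE 0.65), Elf5 (0.33, SE 0.69) and Cxcl15 (-0.38, SE 0.94) had differences smaller than 1 SE.

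Other genes of the members' pathways were counted from lists of ligands, receptors, partners and families. Over all genes, luminal cells had 16.3% called higher and 16.8% called lower in controls, and 19.2% and 21.4% in knockout-labelled libraries. Between genotypes, 0.671% of all genes were called in basal cells. In luminal cells 3.03% were called, and 0.819% were called lower. At such shares lists of this size would hold few calls or none. Of 21 other luminal progenitor and alveolar markers, 13 were called higher and 3 lower in luminal control cells, with Folr1, a folate receptor (log2 fold 4.82), Lalba, the milk protein alpha-lactalbumin (4.48), and Cd55 (4.20) higher and Krt15 lower (-4.37). In luminal knockout-labelled cells 2 of the 21 fell, the milk protein gene Csn2 (log2 fold -5.47, SE 0.75, adjusted p = 0.00504) and Rspo1, a secreted enhancer of Wnt signalling (-3.70, SE 0.82, adjusted p = 0.0357), and none rose. Mean Csn2 was low, at 11.8 CPM in luminal controls and 0.27 CPM in luminal knockout-labelled libraries. Rspo1 varied widely among luminal controls (mean 126 CPM, SD 112 CPM). The median of this list between luminal genotypes was -0.45, close to the -0.53 of the members. In basal cells none of the 21 was called.

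Around KIT, the ligand was on the basal side. Of 16 KIT signalling genes, luminal control cells had 3 called higher and 7 called lower. Kitl, which encodes the KIT ligand stem cell factor, was lower in luminal cells (log2 fold -2.28, SE 0.41, adjusted p = 0.00137), as it was in knockout-labelled libraries (-2.57, adjusted p = 0.000579), opposite to its receptor in both. The adaptor Gab2 (3.44) and the kinase Lyn (2.75) were higher with Kit. None of the 16 was called between genotypes in either lineage, where 0.671% of all genes were called in basal and 3.03% in luminal cells. Of 17 other ETS genes tested, 3 were higher in luminal control cells, Spdef (3.34) and Elf3 (1.82) among them, and 6 were lower, Etv5 (-2.99) and Elk3 (-1.40) among them, and none was called between genotypes. Of 12 other SOX genes tested, Sox6 (1.85) and Sox9 (0.85) were higher and 3 were lower in luminal control cells, and in knockout-labelled libraries 0 were called higher and 7 lower. None of the 12 passed the interaction test, which 0.275% of all genes did. Sox9, a luminal progenitor regulator, had a luminal log2 fold of -0.78 between genotypes (SE 0.23, adjusted p = 0.0925), below that of Sox10 in size and not called.

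The families of the enzyme and of the secreted members were mixed between lineages. Aldh1a3 stood opposite to Aldh1a1 (log2 fold -4.07) and Aldh2 (-1.72) in control cells, where 3 of 19 aldehyde dehydrogenase and retinoid genes were higher in luminal cells and 5 lower. Of 12 lipopolysaccharide-sensing genes tested, 5 were higher in luminal control cells, the receptor Tlr4 (2.06) among them, and 1 was lower. Of 12 other CXC chemokines, 2 were higher in luminal control cells, with Cxcl17 (4.65), and 2 were lower, Cxcl14 (-6.92) and Cxcl12 (-4.70). Cxcl10, an interferon-induced chemokine, rose in knockout-labelled basal cells (1.69, SE 0.33, adjusted p = 0.0469) and luminal cells (1.42, SE 0.32, adjusted p = 0.0399), the one CXC gene called in each. Of 7 tested genes with whey acidic protein domains, 3 were higher, Wfdc3 (4.54) and Wfdc2 (3.49) among them, and 2 lower, Slpi (-4.21) among them. Of 15 iron genes, lactoferrin (Ltf, 3.80) and Lcn2 (0.90) were higher and the transferrin receptor Tfrc (-1.33) lower in luminal control cells, and in knockout-labelled libraries 3 were higher and 5 lower, with Tfrc at -1.47. No gene of the aldehyde dehydrogenase, lipopolysaccharide, whey acidic protein or iron lists was called between genotypes in either lineage. Over all genes 0.671% were called in basal and 3.03% in luminal cells, so lists of this size would hold few calls or none.

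Across the 12 libraries the members fell into unlike patterns. Pearson's r of log2 CPM was 0.99 between Kit and Wfdc18, 0.98 between Kit and Elf5 and 0.95 between Elf5 and Aldh1a3. Sox10 and Trf had r between -0.25 and 0.37 with each of the other 8 members, and 0.41 with each other. Among all other named genes, those most like Trf were Tmem229a (0.95), Tspan8 (0.94) and Mpzl1 (0.93), and those most like Sox10 were AA465934 (0.88), Adcy5 (0.86) and Amigo2 (0.86). Kit was most like Muc20 (0.99), Elf5 like Mmp15 (0.99), Cd14 like Mapk13 (0.98), Ehf like Sh2d4a (0.97) and Lbp like Serp1 (0.87). These values describe 12 libraries that form 2 separate cell types and share 4 groups, so they largely order genes by their group means. Over the 6 luminal libraries alone, r was 0.67 between Kit and Wfdc18, 0.85 between Kit and Elf5 and -0.23 between Elf5 and Aldh1a3. In those libraries the r of Sox10 with other members ranged from -0.84 (Cxcl15) to 0.95 (Cd14).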

How the data were processed

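The authors deposited raw read counts, whole numbers without normalization, for 27179 genes with Entrez numbers, 859 of them lacking a symbol. The model length in bases in the deposited table was used for levels per kilobase. RNeasy extraction and TruSeq RNA v2 libraries for an Illumina HiSeq are given per the labels' protocols, and CASAVA 1.8.2, featureCounts and mm10 per the submitters' processing notes. For the aligner and the annotation the sources used here give no name. The 12 tables per library differed from the series table in 0 values.

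Counts were tested with edgeR 4.0.16 (R 4.3.3) by the robust quasi-likelihood F test, after TMM scaling and edgeR's default filter on low counts, which kept 14903 genes. The fit had 1 mean for each of the 4 groups, all 12 libraries and 8 residual degrees of freedom. The standard error is the size of the log2 fold divided by the square root of F. CPM are counts scaled with TMM factors. The common biological coefficient of variation was 32.6%. Precision is set by the 3 libraries per group. The labels call the replicates biological, without naming the animals. The step was tested on simulated data. Of 100 genes changed 4-fold, 85 were called in basal and 78 in luminal cells. Of 100 changed 2-fold, 19 and 20 were called, with 3 and 8 false calls. The changed genes were drawn only from those above a floor of expected counts, and the simulated libraries were independent of each other. These shares need not hold for members at low counts, such as basal Elf5 and Cxcl15, or for paired libraries. A member near 2-fold that was not called may therefore still differ.

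Replicate numbers are shared by all groups. Deviations of same-numbered libraries from their group means correlated by 0.36, 0.30 and 0.53 for the luminal genotypes and by 0.31, 0.42 and 0.47 for the control lineages, so the numbers were taken to pair those libraries, from the data. For the knockout-labelled lineages the values were 0.09, 0.42 and 0.42. The fit as reported has no replicate block, so its p-values leave any pairing out. Other settings tried were scalings, filters, tools (DESeq2 1.42.0, limma-voom in limma 3.58.1), the replicate block, fewer groups in the fit, and leaving out each library.

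The members and lists were chosen with earlier results of these data known. Genes were named from the 10 members, Foxp1, up to 4 called genes of each list with the lowest p (up to 2 where none was called), and the 3 genes most like each member; not all of these are printed, and 1 marker gene is not reported here. Positions and promoters are from RefSeq on GRCm38, and protein sequences were not used here.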

Additional observations from a re-analysis of the deposited data

Results flagged for a closer look

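For Sox10 and Cd14, each of the 3 knockout-labelled libraries was above the control mean in basal cells and below it in luminal cells. Of these 4 genotype differences, luminal Sox10 was called by edgeR and the other 3 were not, and basal Cd14 in knockout-labelled replicate 2 (13.5 CPM) was close to the control mean (13.2 CPM). The difference between the luminal and the basal log2 fold was -1.78 for Sox10 (SE 0.36, adjusted p = 0.0675 by edgeR) and -1.60 for Cd14 (SE 0.48, adjusted p = 0.218 by edgeR), and neither was called. For Sox10 the Schwann cell and melanocyte markers summed to 81.9 to 118 CPM in basal knockout-labelled libraries and 35.8 to 99.6 CPM in basal controls, and for Cd14 the macrophage and monocyte sums overlapped between all 4 groups; the part of such cells in the differences was not tested.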

How the results depend on the processing

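Of 1090 member values under other settings, 1031 kept their direction and side of the threshold, 24 lost and 20 gained a call, and 15 changed sign, all by leaving out 1 library. The cause was not tested. Genes called in basal cells were 100 as reported, 59 with scaling by library size alone, 417 with DESeq2, 236 with the replicate block, 151 with the basal groups alone, and 17 to 142 without single libraries; members called were 1, 2 with DESeq2 (Cxcl15 added), 2 with the block (Aldh1a3 added, log2 fold -0.91, adjusted p = 0.0427) and 0 to 2 without single libraries. The block changed no other call of a member than this and those of Lbp and Cxcl15 above. For basal genotypes same-numbered correlations were -0.09, 0.36 and 0.13, and the libraries share only a number. Genes called in luminal cells were 451, 1089 with DESeq2, 1097 with the block, 199 with the luminal groups alone and 127 to 716 without single libraries; members called were 1, 0 with DESeq2's size factors, without salivary genes and with no filter, 2 with the block, and 0 to 2 without single libraries. For the interaction, genes called were 41, 356 with DESeq2, 22 with limma-voom, 106 with the block and 10 to 86 without single libraries; members called were 0, 2 with DESeq2 and 0 to 2 without single libraries. Lineage calls were 4942 genes in controls (6528 with the block, 3533 to 5211 without single libraries) and 6044 in knockout-labelled libraries (7634 and 4765 to 6720). Scaling by library size alone moved the median log2 fold of all genes between knockout-labelled lineages from 0.03 to 0.15 and turned no member's direction. Signs changed within these leave-one-out ranges of log2 folds: Lbp between knockout-labelled lineages -0.027 to 1.02; Wfdc18 in basal cells -0.41 to 0.030; in luminal cells Kit -0.64 to 0.11, Ehf -0.34 to 0.11 and Wfdc18 -0.0072 to 0.60; for the interaction Kit -0.23 to 0.52, Elf5 -0.31 to 0.85, Aldh1a3 -0.31 to 0.80 and Cxcl15 -0.75 to 0.68. Between luminal genotypes Sox10 (2.06-fold lower) and Cd14 (1.97-fold lower) lay on either side of the threshold.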
